A study of Rattus norvegicus with 8 samples.

Results

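Transcripts of complement components and of C1 inhibitor were followed in neonatal rat cardiomyocytes, heart muscle cells taken from newborn rats. The genes were chosen by name. Every row of the expression table that carried the symbol C1r, C1s, C1qa, C2, C3, C4a, Cfb, Cfi or Serping1 was taken. The list of symbols was drawn up with earlier results of these data known, so counts over it are descriptions. Of the 9 symbols, 8 had a row, and C4a had 2, which gave 9 rows out of 21017. No row carried the symbol Cfb (factor B), which was not analysed here. The cells came from hearts of SD (Sprague-Dawley) rats and were transfected with siECHS1, a small interfering RNA against Echs1, or with the control labelled siNC. RNA was collected 48 h later and sequenced in 4 libraries per group. Echs1 encodes the mitochondrial short-chain enoyl-CoA hydratase of fatty acid oxidation and valine breakdown. The labels give no genetic change of the rats, and both groups share the transfection. Nothing in the labels says that the replicates were separate cultures or litters, so the p-values below speak only to spread among the 8 libraries, which may be technical.

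Complement is a cascade of secreted proteins that tags targets for uptake and can pierce membranes. In the classical pathway C1q recognises a target, the proteases C1r and C1s attached to it cut C4 and C2, and the enzyme so formed cuts C3. Factor B and factor D drive the alternative pathway, which amplifies C3 cleavage. C1 inhibitor, encoded by Serping1, is a serpin that blocks C1r, C1s and the lectin pathway proteases, and factor I cuts the activated forms of C3 and C4. The liver makes most circulating complement, while many other cells, fibroblasts and muscle cells among them, also transcribe C1r, C1s, C3, C4 and Serping1, and macrophages are the classic source of C1q.

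All 6 complement rows that were abundant enough to test were higher in siECHS1, and none was lower. C2, the C1 proteases C1r and C1s, C3, 1 C4a row and Serping1 rose by between 1.22-fold and 1.67-fold in mean FPKM (fragments per kilobase of transcript, a level scaled to gene length and library total). In each of the 6, every siECHS1 library lay above every siNC library. The 3 remaining rows, C1qa, the other C4a row and Cfi, held fewer than 40 reads in any library and their groups overlapped.

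A row was tested where its mean over the 8 libraries was at least 1 FPKM, and 12616 genes met this. All 6 rows also exceeded that level in siNC alone, so none was tested only because it was higher in siECHS1. The test was limma on log2(FPKM + 1), a scale that understates the change of low genes, with Benjamini-Hochberg adjustment over all 12616 genes and a threshold of 0.05. By this rule 8.83% of all tested genes rose and 12.2% fell, and in 10.3% every siECHS1 library was above every siNC library. The median log2 change was 0.45 over the 6 complement rows, which ranged from 0.28 to 0.60, and -0.01 over all tested genes. Among the 1114 genes that rose the median was 0.26, so the complement changes were of moderate size: 5.30% of the risen genes had a larger change than C2, and 42.3% had a larger one than C1r.

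Library totals lay between 16953309 and 18237111 reads, recovered from the steps of the FPKM values, and 99.92% of each fell in listed genes. The row named Echs1 had 1.33 ± 0.244 FPKM in siNC (SD, n = 4) and 0.516 ± 0.112 in siECHS1, a ratio of 0.388, with no overlap (exact two-sided permutation p = 0.0286, the smallest that 4 libraries against 4 can give). A second row with the same protein match, LOC100911186, fell from 6.61 ± 0.782 to 3.38 ± 0.385 FPKM (limma adjusted p = 0.000272). Both rows may share reads, and each overlaps another gene, Zfp710 for Echs1 and Paox for LOC100911186. The Echs1 row rests on 138 reads in siNC and 55 in siECHS1, with 11 to 45 per library. The cardiomyocyte label matched the RNA: 9 of 9 listed cardiomyocyte marker rows were tested, with a summed level of 7190 to 7328 FPKM in siNC and 7301 to 8050 in siECHS1. Fibroblast markers were also abundant, at 2872 to 3074 FPKM in siNC and 3727 to 4097 in siECHS1, so the libraries held RNA of other heart cells.

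The proteases of the C1 complex were among the most abundant of the complement transcripts. C1r, the protease that activates itself and then C1s, lies on chromosome 4 at 157125998 to 157136829 on the plus strand (ENSRNOG00000011796), in coordinates as the table gives them. Its FPKM in siNC 1 to 4 was 252, 247, 257 and 244, and in siECHS1 1 to 4 it was 299, 299, 313 and 305. The groups did not overlap, and the lowest siECHS1 library stood well above the highest siNC library. Mean C1r rose 1.22-fold, from 250 ± 5.60 to 304 ± 6.76 FPKM (SD, n = 4 each), and by 0.28 on the log2 scale (SE 0.0311, limma adjusted p = 0.000252). The values rest on 48313 reads in siNC and 60454 in siECHS1.

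C1s, which cuts C4 and C2, is encoded beside it at 157143592 to 157155609 on the minus strand (ENSRNOG00000011971). Its FPKM was 114, 115, 114 and 105 in siNC and 147, 159, 165 and 150.4 in siECHS1. Again all siECHS1 libraries were higher, and siNC replicate 4 stood below its group. Mean C1s rose 1.39-fold, from 112 ± 4.85 to 155 ± 8.33 FPKM, and by 0.47 on the log2 scale (SE 0.0459, limma adjusted p = 0.000145).

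Relative to C1r, C1s was higher in the siECHS1 libraries than in the siNC libraries. The ratio of C1s to C1r FPKM was 0.454, 0.466, 0.445 and 0.430 in siNC and 0.491, 0.533, 0.528 and 0.494 in siECHS1, which do not overlap. The mean ratio was 0.449 ± 0.0150 in siNC and 0.511 ± 0.0219 in siECHS1 (SD, n = 4 each), and no p is given for it. C1rl, a protease gene related to C1r that lies on the other side of C1r at 157107469 to 157123446, had a different pattern. Its level was 9.48 ± 0.262 FPKM in siNC and 9.64 ± 0.187 in siECHS1, with a log2 change of 0.02 (SE 0.0435, limma adjusted p = 0.775).

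**Figure D1:**
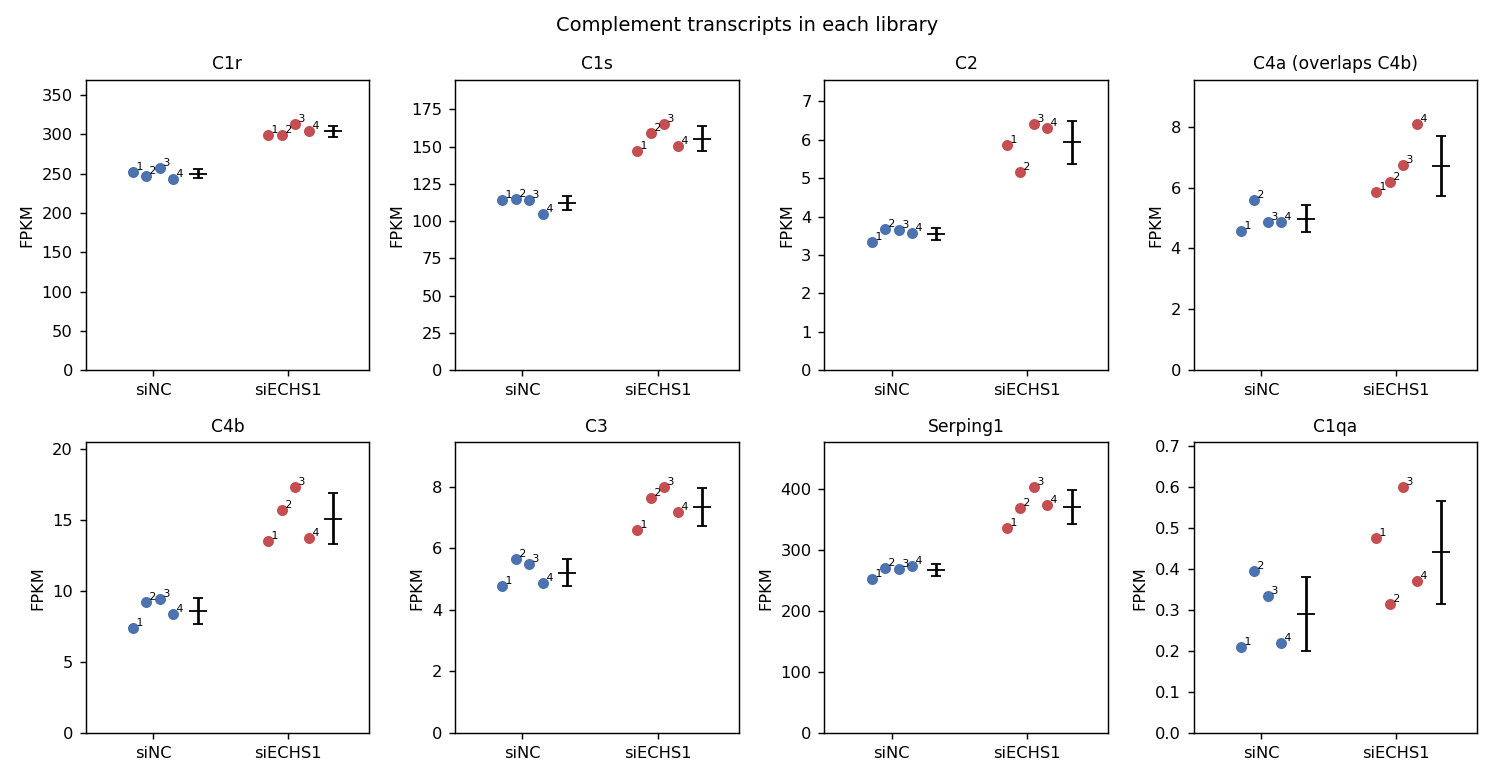
FPKM of complement transcripts in each library, siNC in blue and siECHS1 in red, with the replicate number beside each point and the mean ± SD (n = 4) as a black bar, on linear axes from 0. The groups are apart for C1r, C1s, C2, the C4a row that overlaps C4b, C4b, C3 and Serping1, and they overlap for C1qa, which stays below 0.7 FPKM.

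C2, the protease subunit of the classical C3 convertase, had the largest log2 change of the 6 tested rows. The gene lies on chromosome 20 at 4542340 to 4561152 on the minus strand (ENSRNOG00000051235). Its FPKM was 3.33, 3.67, 3.65 and 3.56 in siNC and 5.87, 5.16, 6.41 and 6.30 in siECHS1. The siNC libraries were close together and siECHS1 replicate 2 was the lowest of its group, still above every control. Mean C2 rose 1.67-fold, from 3.55 ± 0.157 to 5.93 ± 0.565 FPKM, and by 0.60 on the log2 scale (SE 0.0703, limma adjusted p = 0.000328). The reads behind it numbered 645 in siNC and 1109 in siECHS1.

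C3, on which all pathways converge, lies on chromosome 9 at 9721105 to 9747167 on the plus strand (ENSRNOG00000046834). Its FPKM was 4.79, 5.66, 5.49 and 4.86 in siNC and 6.59, 7.63, 7.997 and 7.17 in siECHS1. The groups did not overlap, with siECHS1 replicate 1 closest to the controls. Mean C3 rose 1.41-fold, from 5.20 ± 0.442 to 7.35 ± 0.609 FPKM, and by 0.43 on the log2 scale (SE 0.0724, limma adjusted p = 0.00247).

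C4, whose larger fragment joins C2 in the convertase, is listed under the symbol C4a in 2 rows and under C4b in 1 more. The 3 rows have the same protein match and can share reads: the handling of multi-mapped reads was not given in the sources used here. The C4a row on chromosome 20 at 4302347 to 4508214 (ENSRNOG00000000443) also spans the C4b row at 4302344 to 4316715 and 15 further rows, so its values are uncertain. Its FPKM was 4.56, 5.59, 4.88 and 4.88 in siNC and 5.87, 6.18, 6.73 and 8.09 in siECHS1. The gap between the groups was small, and siECHS1 replicate 4 was the highest. Its mean rose 1.35-fold, from 4.98 ± 0.434 to 6.72 ± 0.980 FPKM, and by 0.36 on the log2 scale (SE 0.0906, limma adjusted p = 0.0176), the largest adjusted p of the 6 rows.

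C4b (ENSRNOG00000030729), not itself among the named symbols, had the largest rise of the tested complement genes. Its FPKM was 7.35, 9.19, 9.43 and 8.34 in siNC and 13.5, 15.7, 17.3 and 13.7 in siECHS1. Its mean rose 1.76-fold, from 8.57 ± 0.939 to 15.1 ± 1.79 FPKM, and by 0.74 on the log2 scale (SE 0.0902, limma adjusted p = 0.000385). The ratio of C4b to the overlapping C4a row was 1.61 to 1.93 in siNC and 2.31, 2.53, 2.57 and 1.70 in siECHS1, where replicate 4 lay within the siNC range. That library was also the one with the highest C4a value. Summed over the 3 C4 rows, the level was 13.9 ± 1.31 FPKM in siNC and 22.1 ± 1.96 in siECHS1, 1.59-fold, with no overlap. The sum does not depend on how shared reads were divided only if each was counted once, which is not known. It may also hold reads of the other rows that the overlapping C4a row spans. The second C4a row (ENSRNOG00000047657, chromosome 20 at 2651599 to 2678141) was low, at 0.295 ± 0.0626 and 0.313 ± 0.0665 FPKM, and its groups overlapped (exact two-sided permutation p = 0.571).

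The regions around the start sites of C1r, C3, C4a and C4b are printed because these genes were higher together and RefSeq gives their sequence. Of the 9 symbols and C4b, 6 had an entry in the RefSeq promoter table (build GRCr8), matched by symbol, and C1s, C2, Serping1 and Cfb are named only. Each sequence runs from 250 bases before the start site to 50 after it, 5′ to 3′ along the gene. For C3, C4a and C4b the strand in GRCr8 is the opposite of the one given with the FPKM values. Which C4a row the C4a sequence belongs to was not settled. Capitals mark matches to a transcription factor motif.
C1r, chr4:159098763-159099062, plus strand: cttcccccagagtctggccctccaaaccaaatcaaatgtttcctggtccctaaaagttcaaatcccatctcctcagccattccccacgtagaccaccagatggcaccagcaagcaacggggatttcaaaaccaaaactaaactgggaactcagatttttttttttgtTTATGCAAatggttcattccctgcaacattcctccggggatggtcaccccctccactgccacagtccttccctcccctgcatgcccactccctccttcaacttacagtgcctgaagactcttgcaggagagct
C3, chr9:2201290-2201589, minus strand: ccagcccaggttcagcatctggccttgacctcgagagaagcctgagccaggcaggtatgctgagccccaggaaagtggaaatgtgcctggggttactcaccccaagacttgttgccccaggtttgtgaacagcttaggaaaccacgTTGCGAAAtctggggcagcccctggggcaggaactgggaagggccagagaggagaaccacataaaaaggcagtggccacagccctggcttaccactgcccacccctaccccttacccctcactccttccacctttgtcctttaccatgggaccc
C4a, chr20:4010107-4010406, plus strand: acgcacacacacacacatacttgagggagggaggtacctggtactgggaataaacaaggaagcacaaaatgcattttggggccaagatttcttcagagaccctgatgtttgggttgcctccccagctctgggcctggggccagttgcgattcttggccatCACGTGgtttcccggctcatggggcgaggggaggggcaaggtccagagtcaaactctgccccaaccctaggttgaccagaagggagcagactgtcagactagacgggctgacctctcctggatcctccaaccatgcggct
C4b, chr20:4201729-4202028, plus strand: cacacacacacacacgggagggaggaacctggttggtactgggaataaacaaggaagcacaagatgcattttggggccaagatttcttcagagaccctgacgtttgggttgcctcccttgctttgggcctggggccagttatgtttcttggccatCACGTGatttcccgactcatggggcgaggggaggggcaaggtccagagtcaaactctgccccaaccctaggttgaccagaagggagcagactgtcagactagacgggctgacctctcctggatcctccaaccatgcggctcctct
The motifs searched, on both strands, were C/EBP (TTGCNNAA), kappaB (GGGNNTTCC), GAS (TTCNNNGAA), IRF (GAAANNGAA), E-box (CACGTG) and AP-1 (TGANTCA). The C/EBP letters occurred in C1r as TTATGCAA, read on the other strand, 83 bases before the start, and in C3 as TTGCGAAA, 104 bases before it. Of 33469 promoters in the table, 10.6% held them. The E-box letters, held by 6.42% of promoters, occurred 90 bases before the start of C4a and 95 before that of C4b. No match overlapped another. C4a and C4b were alike here, with 279 of 291 aligned bases identical (95.88%), and the same E-box stood in both. The other entries were those of the low genes: C1qa held the GAS letters (8.87% of promoters) and Cfi the kappaB letters (5.92%). The IRF and AP-1 letters, held by 9.71% and 7.33% of promoters, were in none of the 6 windows. A match of letters is a description and shows no binding.

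Serping1, the inhibitor of the C1 proteases, was the most abundant of the named transcripts. It lies on chromosome 3 at 72161189 to 72171078 on the minus strand (ENSRNOG00000007457). Its FPKM was 252, 271, 269 and 274 in siNC and 336, 369, 404 and 374 in siECHS1. The siECHS1 libraries were spread more widely than the controls and all lay above them. Mean Serping1 rose 1.39-fold, from 266 ± 9.86 to 371 ± 27.7 FPKM, and by 0.47 on the log2 scale (SE 0.0528, limma adjusted p = 0.000272). The inhibitor and its target proteases were higher in the same 4 libraries. The summed FPKM of C1r and C1s divided by that of Serping1 was 1.36 ± 0.0757 in siNC and 1.24 ± 0.0608 in siECHS1 (SD, n = 4 each), and the groups overlapped, with ranges of 1.27 to 1.45 and 1.19 to 1.33. C3 divided by Serping1 was 0.0195 ± 0.00145 and 0.0198 ± 0.000639, also with overlap.

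**Figure D2:**
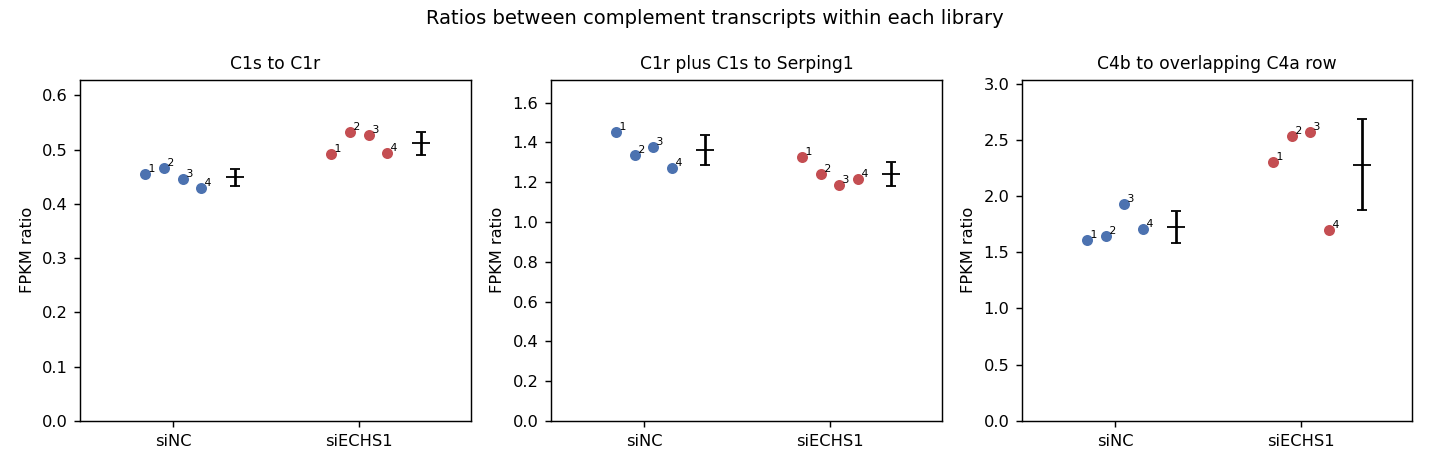
Ratios of FPKM between complement transcripts within each library, siNC in blue and siECHS1 in red, with replicate numbers and the mean ± SD (n = 4) in black. C1s to C1r is apart between groups (0.430 to 0.466 against 0.491 to 0.533), while the ratio of both proteases to Serping1 overlaps and siECHS1 replicate 4 has a C4b to C4a ratio within the siNC range.

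The levels fell into 3 tiers, compared per length in FPKM. In siNC, Serping1 and C1r had higher means than 98.7% and 98.6% of the listed genes, and C1s than 96.5%. C3, the C4a row and C2 stood near the middle of the listed genes, above 57.3%, 56.7% and 52.6% of them. Only 12616 of the 21017 listed genes reached a mean of 1 FPKM, so among tested genes these rows ranked lower. C1qa, the second C4a row and Cfi were at the bottom, above 29.1%, 29.3% and 12.4%. The order in siNC was Serping1, C1r, C1s, C4b, C3, C4a, C2, the second C4a row, C1qa and Cfi. Serping1 and C1r, C3 and C4a, and the second C4a row and C1qa were neighbours whose library ranges overlapped. In siECHS1 the first 7 kept that order, Serping1 was clear of C1r, and C4a overlapped both C3 and C2. The reads of C1r, C1s and Serping1 together made up 0.153% ± 0.00245 of a library in siNC and 0.201% ± 0.00910 in siECHS1.

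**Figure D3:**
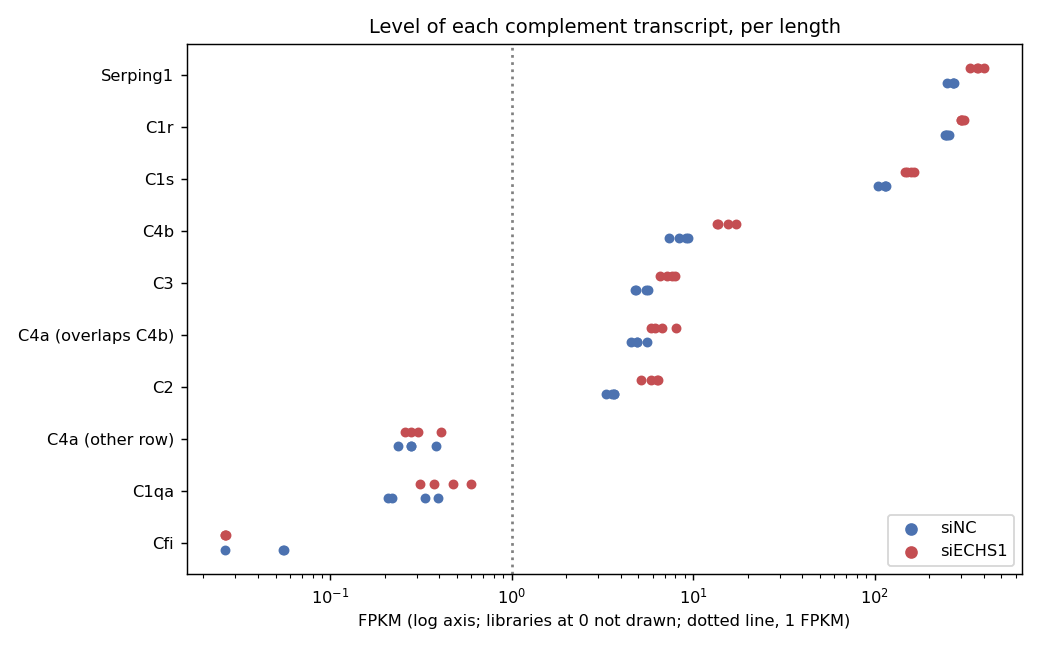
FPKM of each complement row on a log axis, 1 point per library, siNC in blue and siECHS1 in red, with libraries at 0 not drawn and a dotted line at 1 FPKM, the minimum mean for testing. Serping1, C1r and C1s stand above 100 FPKM in every library, C4b, C3, C4a and C2 between 3.33 and 17.3, and the other rows below 1.

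C1q and factor I, the recognition subunit and the C3b-cleaving protease, were near the limit of detection. C1qa (chromosome 5 at 155261250 to 155264143, ENSRNOG00000012807) had 4, 7, 6 and 4 reads in siNC and 9, 6, 11 and 7 in siECHS1. In FPKM this was 0.289 ± 0.0901 and 0.440 ± 0.126, the groups overlapped (exact two-sided permutation p = 0.143), and without the filter on low values its limma adjusted p was 0.248. No difference in C1qa was detected at these counts. The partner chains were scarcer still. C1qb had 4 reads in each group. C1qc had none in siNC and 6 in siECHS1, 1 or 2 in each library (limma adjusted p without the filter = 0.0406), too few for a fold change. Cfi (chromosome 2 at 235264219 to 235305781, ENSRNOG00000053400) had 5 reads in siNC and 3 in siECHS1, with 0 to 2 per library (exact two-sided permutation p = 0.400).

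The high values of the 6 tested rows fell in the same libraries. siECHS1 replicate 3 was the highest of all 8 libraries in 5 rows, with C4a the exception, where replicate 4 was. This was not particular to complement: siECHS1 replicate 3 was also the highest for Col1a1, Col3a1, Dcn, Cd68 and Osmr, though not for Hpx, Lcn2 or Il6. The share over all tested genes was not computed. siECHS1 replicate 1 was the lowest of its group in 4 rows and replicate 2 in the other 2, C1r and C2. Among controls, replicate 1 was the lowest of all 8 libraries in 4 rows and replicate 4 in C1r and C1s. These rows come from the same 8 libraries and are not separate replicates of the comparison.

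The rest of the complement system did not move as a block. Of 48 further complement genes listed from textbook knowledge, 40 had a row and 18 were tested, of which 4 rose, 1 fell and 13 did not pass. Their median log2 change was 0.02. The background was again 8.83% risen and 12.2% fallen over all tested genes. Besides C4b, those that rose were Cd59, Colec12 and Clu. Cd59, a membrane protein that blocks the pore-forming complex, had an FPKM of 116, 116, 110.5 and 113 in siNC and of 141, 133, 125 and 133 in siECHS1, with no overlap and a log2 change of 0.22 (SE 0.0394, limma adjusted p = 0.00329).

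Colec12, a scavenger receptor of the collectin family, rose from 19.8 ± 0.777 to 22.7 ± 1.13 FPKM (limma adjusted p = 0.0180), a call lost without siECHS1 replicate 1 or 2 (0.0512 and 0.0501). Clu, the chaperone clusterin, which also restrains the terminal complex, was far more abundant at 1631 ± 33.7 FPKM in siNC and 1773 ± 51.1 in siECHS1. Its log2 change was 0.12 (limma adjusted p = 0.0382), and 9 of 16 alternative settings lost the call. The gene that fell was Colec11, a collectin that can start the lectin pathway. Its FPKM was 1.43, 1.86, 1.55 and 2.53 in siNC and 0.536, 0.931, 0.797 and 0.876 in siECHS1, with no overlap and a log2 change of -0.66 (SE 0.128, limma adjusted p = 0.00516), and it met the minimum level only through siNC.

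Outside the classical pathway most tested genes did not pass. Of the lectin pathway genes 3 were tested, and the protease gene Masp1 was at 16.1 ± 0.445 and 16.1 ± 0.455 FPKM. Of the alternative pathway only Cfd, factor D, could be tested, at 2.18 ± 0.453 FPKM in siNC and 2.17 ± 0.419 in siECHS1. In the terminal pathway C7 and C8g were tested and neither passed, with log2 changes of -0.05 and 0.05. Cd55, which speeds the decay of C3 convertases, was at 3.90 ± 0.337 and 4.81 ± 0.631 FPKM and missed the threshold (limma adjusted p = 0.0734). None of the 5 tested receptors passed, among them the anaphylatoxin receptors C3ar1 (log2 change -0.05, limma adjusted p = 0.725) and C5ar2 (0.20, 0.140). The other 22 rows of the list were below the filter.

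**Figure D4:**
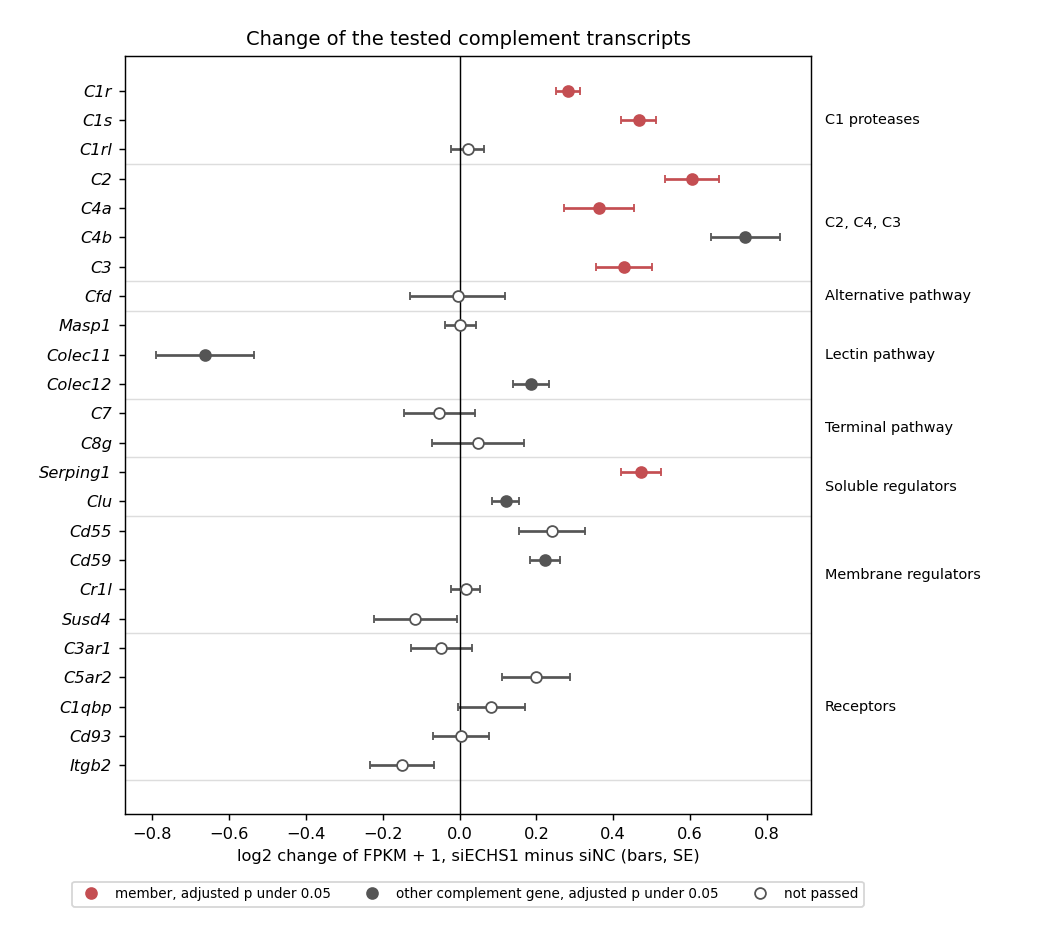
Log2 change of FPKM + 1 (siECHS1 minus siNC) with its SE for each tested complement gene, grouped by role, named members in red, other complement genes in grey, filled where the limma adjusted p was under 0.05. C1r, C1s, C2, C4a, C4b, C3 and Serping1 lie between 0.28 and 0.74, Colec11 lies at -0.66, and the open points lie between -0.15 and 0.24.

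Acute phase proteins, which liver and other cells raise in inflammation, were described beside the complement genes, together with cytokine and signalling genes of that response. The lists were drawn up with earlier results of these data known. Of 13 tested genes of this mixed list 4 rose, 3 fell and 6 did not pass, with a median log2 change of 0.17. Over all tested genes 8.83% rose and 12.2% fell. The tested acute phase proteins either rose or did not pass, and those that fell were signalling genes. Hpx, the heme-binding protein hemopexin, went from 4.15 ± 0.165 to 9.32 ± 0.356 FPKM, and Lcn2, the iron-siderophore binder lipocalin 2, from 465 ± 21.0 to 877 ± 47.6 (log2 changes 1.00 and 0.91, limma adjusted p = 3.33e-06 for both). Il6, a cytokine that drives liver acute phase synthesis, went from 2.22 ± 0.553 to 3.64 ± 0.449 FPKM, and Osmr, the oncostatin M receptor, from 23.5 ± 0.360 to 29.1 ± 1.35 (limma adjusted p = 0.0116 and 0.000799). Those that fell were Socs3, a feedback inhibitor of cytokine receptors, Il6r, the interleukin 6 receptor, and Stat3, the transcription factor that acts downstream of it. Their log2 changes were -0.30, -0.25 and -0.13 (limma adjusted p = 0.0108, 0.0415 and 0.0241). Socs3 kept its call in every alternative setting, while Il6r and Stat3 lost theirs in several.

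Markers of other cell types moved with the complement rows to different extents, and their part in the result was not tested. In bulk RNA, fewer cells of a type and less RNA per cell cannot be told apart. Of 9 tested fibroblast markers 5 rose, 1 fell and 3 did not pass, and their summed level did not overlap between groups. Dcn, the matrix proteoglycan decorin, rose from 85.0 ± 5.004 to 137 ± 4.29 FPKM, and Col1a1, Col3a1 and Postn rose with log2 changes of 0.41, 0.39 and 0.37. The list did not move one way: Lum, the proteoglycan lumican, fell with a log2 change of -0.19 (limma adjusted p = 0.0161). The fibroblast surface and lineage genes Pdgfra, Tcf21 and Thy1 did not pass, at log2 changes of -0.03, -0.02 and -0.11. Of 9 cardiomyocyte markers 2 rose, 2 fell and 5 did not pass. Myh6, the heavy chain of fast cardiac myosin, fell from 948 ± 19.3 to 741 ± 59.0 FPKM and Tnni3, cardiac troponin I, from 181 ± 8.72 to 150.5 ± 8.82, while Myh7, the slow heavy chain, rose with a log2 change of 0.24 and Actc1, cardiac actin, with 0.19.

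Macrophage and leukocyte markers ranged from near 0 to levels above those of C3. Of 13 listed rows 7 were tested, and Cd68 rose, Csf1r fell and 5 did not pass. Their summed level was 38.0 to 38.7 FPKM in siNC and 36.2 to 40.8 in siECHS1, with Cd14, Csf1r and Cd68 at means of 9.54, 9.12 and 8.88 FPKM in siNC. Ptprc, Adgre1, Cx3cr1 and Cd163 stood below 0.1 FPKM. Hepatocyte markers summed to 2.49 to 3.48 FPKM in siNC and 2.21 to 3.21 in siECHS1, with Alb, Apob, Fga and Tat below 0.1. None of the 7 tested endothelial markers passed, and their sum was 38.8 to 43.0 FPKM in siNC and 40.9 to 44.0 in siECHS1. Among smooth muscle markers Acta2 rose (log2 change 0.15) and Tagln fell (-0.33) of 8 tested, and among 6 epicardial ones Upk1b rose (0.41) and Wt1 fell (-0.31). Myh6, Myh7, Tnni3 and Tagln overlap another listed row, and their values may hold reads of it. Summed levels of smooth muscle markers overlapped between groups, at 4322 to 4420 and 4131 to 4497 FPKM, while those of epicardial markers were apart, at 47.8 to 50.8 and 54.0 to 59.3 FPKM. Upk1b was the largest part of the epicardial sum, at means of 21.4 FPKM in siNC and 28.9 in siECHS1. The means of Wt1 (3.06 and 2.26) and Tbx18 (7.93 and 6.95) were lower in siECHS1, and those of Krt19, Lrrn4 and Msln slightly higher. Upk3b, under the filter, had means of 0.218 FPKM in siNC and 0.421 in siECHS1, on 18 and 36 reads, and its groups overlapped. The calls of Actc1, Acta2 and Wt1 were lost under some alternative settings.

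**Figure D5:**
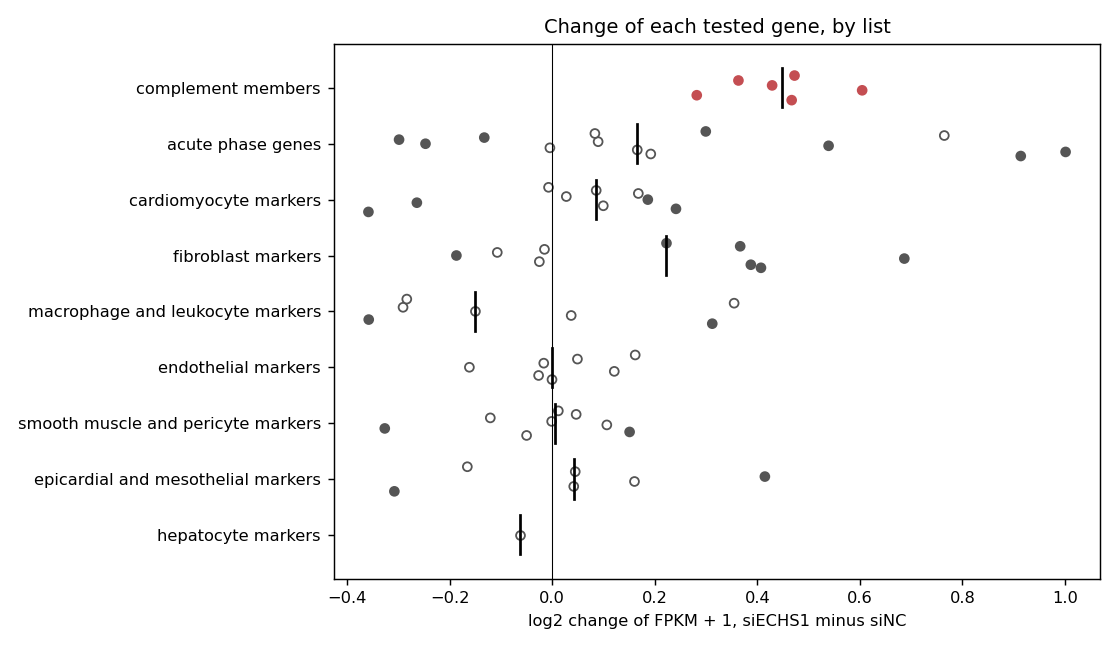
Log2 change of FPKM + 1 (siECHS1 minus siNC) of each tested gene by list, filled where the limma adjusted p was under 0.05, with the list's median as a black bar and the complement members in red. The 6 complement points lie between 0.28 and 0.60, and every other list drawn with at least 2 tested genes has points on both sides of 0.

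The genes whose library-by-library pattern was nearest to that of C3 and of Serping1 were found by distance. For each tested gene the deviation from its siNC mean in log2(FPKM + 1) was set against that of C3 or Serping1 over the 8 libraries, as a root mean square. Nearest to C3 were Pla2g2a (a secreted phospholipase A2), Pdpn (podoplanin), Steap1 (a metalloreductase), Gip (a gut hormone) and Ctsl (cathepsin L), at distances of 0.0626 to 0.0695. Nearest to Serping1 were Ctsl, Gip, Dctd (deoxycytidylate deaminase), Steap1 and Upk1b (a uroplakin), at 0.0556 to 0.0626. Ctsl went from 429 ± 10.4 to 593 ± 18.5 FPKM (log2 change 0.46, against 0.47 for Serping1), and Pla2g2a from 40.2 ± 2.99 to 51.9 ± 1.93 (0.36). These genes were picked for a small distance, so changes near those of C3 and Serping1 follow from the choice. Ctsl, Gip and Steap1 were in both sets. C3 and Serping1 themselves changed by similar amounts, so genes shared by the sets are no separate result.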

How the data were processed

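Total RNA of 8 libraries, 4 siNC and 4 siECHS1, was sequenced. Per the labels' protocols, each library took 1 µg of RNA through the TruSeq RNA kit. That kit does not mark strand. The authors deposited FPKM values, with 1 column per library. The aligner Bowtie 0.12.2 and both builds, Rnor_6.0 and mm8, are named per the submitters' processing notes, without roles. The counter, the annotation, the strand setting and the handling of multi-mapped reads were not given in the sources used here. Overlapping or near-identical genes may share reads. The table's header names no build, and promoter coordinates are GRCr8.

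Columns were matched to libraries by name, and all were assigned. Low FPKM values step in whole reads. The reads behind each value were recovered from the steps, and 100% came out whole within 0.01 read. Replicates differed by more than counting noise (chi-square per degree of freedom 2.48 to 5.72), and each library counted once. Such a spread does not show that they were separate cultures.

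The groups were compared two-sided by limma 3.58.1 (R 4.3.3, variance trend) on log2(FPKM + 1), over genes whose mean reached 1 FPKM. Rows below that level were given an exact permutation test over the 70 assignments and the adjusted p of a fit without the filter. The scripts were tested on simulated data. Alternatives were another pseudocount, filters, scalings, no variance trend, voom on recovered reads, a replicate block, and each library left out. Tables and figures used Python 3.11.15, pandas 2.3.3, Biopython 1.88 and matplotlib 3.10.9. The labels number replicates 1 to 4 in both groups. The deviations of same-numbered libraries from their group means had correlations of 0.173, -0.0507, 0.00719 and 0.0750. Those of unlike-numbered libraries ran from -0.146 to 0.101. On the second main axis of variation among the libraries, replicates 1 to 4 stood in order in both groups. Their positions were -10.7, -0.620, 1.29 and 6.88 in siNC and -7.39, -1.77, 2.02 and 10.3 in siECHS1. The labels state no pairing and the numbers were not taken as pairs, but a shared replicate effect was not tested.

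All members are named. Of the other complement genes, those past the threshold are named, with some that did not pass chosen after their values were seen. Of each context or marker list, up to 4 genes with the largest called change are named, with Socs3, Il6r, Stat3, Lum, Pdgfra, Tcf21, Thy1 and Cd14 added after their values were seen, and the 5 genes most like C3 and Serping1. The members and lists were chosen with earlier results of these data known, so counts over them are descriptions. Some listed genes are not reported here.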

Additional observations from a re-analysis of the deposited data

Results flagged for a closer look

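In the 48 groups of 4 libraries examined, 3 held a library far from the other 3, where chance alone gives about 1 in 20. C1s in siNC replicate 4 was low, at 104.9 FPKM against 114.3 to 115.0 in the other controls, and its gap made up 0.937 of the range. Without that library the C1s change kept its call. Cfd, the gene of factor D, was high in siNC replicate 3, at 2.852 FPKM against 1.862 to 2.004. Cfd was low in siECHS1 replicate 1, at 1.545 FPKM against 2.332 to 2.411.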

How the results depend on the processing

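All 6 complement calls (C1r, C1s, C2, C3, C4a, Serping1) kept their direction and stayed past the threshold in every alternative in which the row was tested. The number of members risen was 6, or 5 where C2 fell below a mean of 5 FPKM and 5 where only rows without an overlapping gene or shared protein match were counted. The number fallen was 0 throughout. C4a came closest to the threshold, at limma adjusted p = 0.0466 without the filter. With each library left out in turn its log2 change ranged from 0.28 to 0.42, that of C2 from 0.57 to 0.66, C3 from 0.39 to 0.47, Serping1 from 0.43 to 0.52, C1s from 0.44 to 0.49 and C1r from 0.27 to 0.29. The number of other complement genes risen ranged from 2 to 4 with a library left out, with 2 without siECHS1 replicate 2. The number fallen was 0 where a mean of 5 FPKM was required, which left Colec11 untested. Over all tested genes the risen ranged from 792 to 1283 and the fallen from 1106 to 1699. With a replicate block, although the numbers were not taken as pairs, 6 members and 5 other complement genes rose, and 1283 genes rose and 1669 fell in all. Scaling by median of ratios moved the median log2 change of all genes from -0.01 to 0.00107. Of 33 other named genes that passed, 26 kept their call in every alternative that tested them, and Colec12, Clu, Actc1, Acta2, Wt1, Il6r and Stat3 lost it in at least 1. Il6r was the 1 named gene whose call the replicate block ended (limma adjusted p = 0.0587). Depth limits C1qa, Cfi and the second C4a row, with at most 38 reads in a library.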
